A study of Rattus norvegicus with 4 samples.

Results

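The 8 genes described here encode caspases, the apoptosome scaffold and the inhibitor-of-apoptosis proteins with their antagonist, in ventricular heart muscle cells of newborn rats treated with carfilzomib. They are Casp9, Casp8, Casp2, Casp6, Apaf1, Xiap, Birc2 and Diablo, chosen by symbol from the 18699 genes of the deposited expression table, and each symbol matched 1 gene. All 8 passed the filter on low counts that left 14519 genes for testing. The treated cells received 1 µM carfilzomib, a proteasome inhibitor used against multiple myeloma, for 24 h, and their controls received vehicle for the same time, with 2 libraries per group. All cells were wild-type primary cultures from neonatal Sprague Dawley rats aged 1 to 3 days, grown in 15% serum with 0.1 mM bromodeoxyuridine, which holds back dividing cells other than cardiomyocytes. Nothing in the labels ties replicates to separate animals or cultures, and the p-values therefore reflect differences between libraries that may be technical in origin.

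Caspases are proteases that are made as inactive precursors and carry out apoptosis once they are cleaved or brought together. In the mitochondrial route, cytochrome c leaves the mitochondria and binds APAF1, which assembles into the apoptosome and activates caspase-9, while death receptors activate caspase-8 at the plasma membrane. Inhibitor-of-apoptosis proteins, among them XIAP, hold caspases back or act as ubiquitin ligases in death receptor signalling, and DIABLO, also called SMAC, is released from mitochondria to displace them. Heart muscle cells divide little after birth, so their loss is hard to make good, and adult heart is known for low levels of several apoptosome components.

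The 4 libraries held between 18655499 and 18884362 estimated counts. Summed CPM (counts scaled to a common library size and composition) of 8 cardiomyocyte markers was 9145 and 8647 in the carfilzomib libraries, against 20830 and 20602 in the vehicle libraries, and none of these markers was at 0. Of the 8, 7 fell and Nppa did not pass, and most of the drop in the sum was that of Myh6, at 714 and 709 CPM with carfilzomib and 10018 and 9621 CPM with vehicle. Without Myh6 the sums were 8431 and 7938 CPM with carfilzomib and 10813 and 10981 CPM with vehicle. Of 8 fibroblast markers all fell, with summed levels of 15511 and 14787 CPM in carfilzomib libraries and 27685 and 28241 CPM in vehicle libraries, so fibroblast RNA was present in every library. Most of that sum was Col1a1, at 11155 and 10590 CPM with carfilzomib and 19415 and 19926 CPM with vehicle. The log2 fold changes of these markers ran from -1.27 for Col3a1 to -0.33 for Dcn. Smooth muscle markers summed to 1296 and 1259 CPM with carfilzomib and 3705 and 3844 CPM with vehicle. The 4 endothelial markers summed to between 56.1 and 59.1 CPM in all libraries but moved both ways. Tek rose, at 35.5 and 36.0 CPM with carfilzomib and 27.6 and 27.3 CPM with vehicle. Kdr fell, at 13.7 and 13.1 CPM with carfilzomib and 16.6 and 18.8 CPM with vehicle, and 2 did not pass. Macrophage markers summed to 47.0 and 42.4 CPM with carfilzomib and 53.6 and 55.8 CPM with vehicle. Of the 5 tested, 4 fell and 1, Cd14, rose, at 24.8 and 21.2 CPM with carfilzomib and 16.0 and 15.3 CPM with vehicle. Cd68 was at 10.1 and 9.48 CPM with carfilzomib and 19.7 and 21.8 CPM with vehicle. In such mixed cultures, fewer cells of a type and less RNA per cell cannot be told apart, and the part of these shifts in the results below was not tested.

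Carfilzomib raised Diablo, Birc2 and Casp8 and lowered Casp2 and Apaf1, while Casp9, Casp6 and Xiap did not pass the test. A call is an adjusted p under 0.05 in edgeR's quasi-likelihood test with Benjamini-Hochberg adjustment over all tested genes, and fold changes are given as carfilzomib over vehicle. The 5 of 8 genes called compare with 60.7% of all tested genes, the 3 that rose with 30.6% and the 2 that fell with 30.1%, so the share called among these genes was close to that of the whole table. In 5 of the 8 genes the CPM of the groups did not overlap, against 79.9% of all tested genes. In 11 refits with another test, scaling or filter, with replicate number as a block or without 1 library, 5 or 6 of the 8 genes were called. All-gene shares called were then 44.7% with DESeq2, 60.7% with limma-voom and with RLE factors, 61.1% with library size alone, 47.7% without a filter, 63.4% with a stricter filter, 56.7% with the block, 53.7% and 52% without vehicle replicate 1 or 2, and 51.1% and 49.5% without carfilzomib replicate 1 or 2. The median log2 fold change was -0.08 over the 8 genes and 0.00 over all tested genes, and the median absolute log2 fold change was 0.47 and 0.34 for the same sets. The 0.47 lies midway between the absolute changes of Apaf1 (-0.35) and Casp6 (-0.60), and the vehicle libraries of Casp6 differed 13.6-fold. Without Casp6 the middle gene is Apaf1 by absolute change and Xiap, at 0.01, by signed change.

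**Figure D1:**
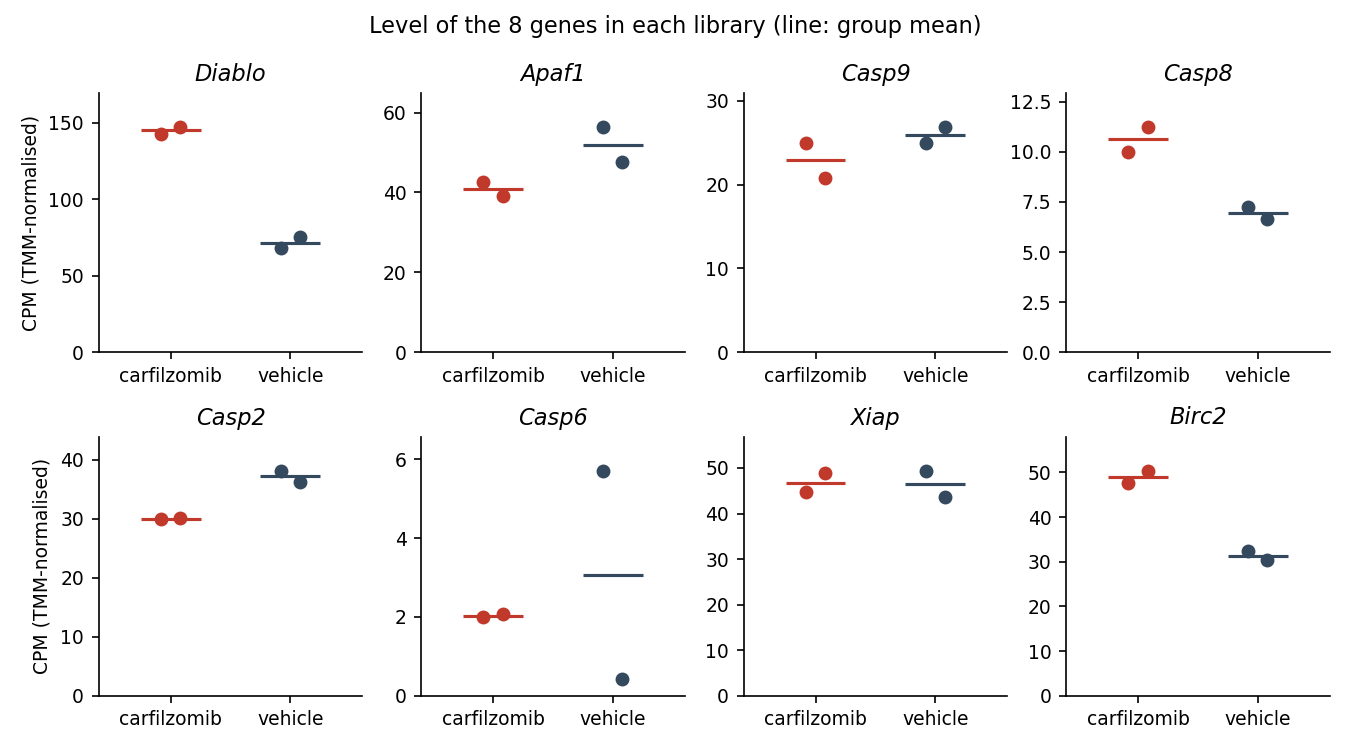
TMM-normalised CPM of each of the 8 genes in every library, carfilzomib left and vehicle right, with a line at the mean of each pair. Diablo, Birc2 and Casp8 stand higher and Apaf1 and Casp2 lower in both carfilzomib libraries, and the vehicle libraries of Casp6 lie at 5.71 and 0.43 CPM.

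Diablo (gene ID 288753), the mitochondrial antagonist of inhibitor-of-apoptosis proteins, had 143 and 147 CPM in carfilzomib libraries, against 67.9 and 75.5 CPM in vehicle libraries. Both carfilzomib libraries lay well above both vehicle libraries, and the replicates of each group were close. Its means were 145 ± 2.97 CPM with carfilzomib and 71.7 ± 5.41 CPM with vehicle (SD, n = 2 each), a rise of 2.02-fold. On the log2 scale this was 1.02 ± 0.06 (SE; edgeR adjusted p = 7.83e-10), the largest change of the called genes here, and 11.3% of all tested genes had a larger absolute change. Part of the Diablo count carried decimals, as arise where a read is divided among genes, although the origin of the decimals is not stated. The decimals of 1 other gene, LOC100360940, completed those of Diablo to whole numbers in every library to within 0.015 counts, and that gene took at most 0.42% of the summed count of the pair.

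Likeness to Diablo was measured as the root mean square difference of log2 CPM centred over the 4 libraries. The 3 closest genes among 10001 with a mean of at least 10 CPM were Fhdc1, Tubb4b and Tbc1d17. Their differences from Diablo were 0.020, 0.020 and 0.025 on the log2 scale. Fhdc1 had 35.4 and 37.5 CPM with carfilzomib and 16.9 and 18.5 CPM with vehicle. With 4 libraries in 2 groups, such likeness rests mostly on the size of the difference between groups.

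Birc2 (gene ID 60371) encodes cIAP1, a ubiquitin ligase that acts on RIPK1 and on the kinase NIK in signalling from tumour necrosis factor receptors. It had 47.6 and 50.4 CPM in carfilzomib libraries, against 32.4 and 30.4 CPM in vehicle libraries. The groups did not overlap, and the gap between them was several times the gap between replicates. The rise was 1.56-fold, or 0.64 ± 0.06 (SE) in log2 units (edgeR adjusted p = 5.23e-07). Birc3, its neighbour in the genome, encodes the closely related cIAP2, and the decimals of the counts complemented each other. The counts of Birc2 and Birc3 summed to whole numbers in every library, 1021 and 1078 with carfilzomib and 698 and 656 with vehicle, and Birc3 took 10.95% and 11.8% of the sum with carfilzomib and 13.8% and 14.5% with vehicle. With the counts of both genes summed, an alternative chosen after seeing the data, the log2 fold change was 0.60.

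Xiap (gene ID 63879), whose product binds and blocks caspases, caspase-9 among them, had similar levels in both groups. It had 44.7 and 48.9 CPM in carfilzomib libraries, against 49.4 and 43.6 CPM in vehicle libraries, and the groups overlapped. The fitted change was 0.01 ± 0.07 (SE) in log2 units (edgeR adjusted p = 0.924), with a 95% interval from -0.15 to 0.16, which corresponds to a range from 0.90-fold to 1.12-fold. The sign changed with the library left out, between -0.08 and 0.10. On the per-length scale (FPKM as deposited), the ratio of Birc2 to Xiap within a library was 1.71 and 1.67 with carfilzomib and 1.06 and 1.13 with vehicle. The level of Diablo over the summed levels of Xiap and Birc2 was 4.75 and 4.54 with carfilzomib and 2.67 and 3.27 with vehicle, also in FPKM. These ratios are of RNA and were not tested.

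Upstream sequence was at hand for 6 of the 8 genes, from RefSeq on the build GRCr8, and is shown for the largest rise, the other rise with an entry and the gene with the larger estimated fall. The submitters' processing notes name the build Rnor_6.0, so these coordinates belong to GRCr8 alone. Each run has 250 bases and ends just before the annotated start. Capitals mark matches to 6 motifs searched on both strands, chosen with the results known: TGACNNNGC (antioxidant response element core), TGANTCA (AP-1 site), TGACGTCA (cAMP response element), TTTCCCGC (E2F site), the heat shock element and a loose form of the NF-kB site, where N is any base.
Diablo, upstream of the annotated start, GRCr8 chr12:38716418-38716667, plus strand: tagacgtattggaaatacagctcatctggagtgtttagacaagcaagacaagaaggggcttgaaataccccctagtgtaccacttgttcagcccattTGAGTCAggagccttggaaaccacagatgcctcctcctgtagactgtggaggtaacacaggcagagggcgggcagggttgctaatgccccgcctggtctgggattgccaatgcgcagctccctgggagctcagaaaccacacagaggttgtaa
Birc2, upstream of the annotated start, GRCr8 chr8:13271541-13271790, minus strand: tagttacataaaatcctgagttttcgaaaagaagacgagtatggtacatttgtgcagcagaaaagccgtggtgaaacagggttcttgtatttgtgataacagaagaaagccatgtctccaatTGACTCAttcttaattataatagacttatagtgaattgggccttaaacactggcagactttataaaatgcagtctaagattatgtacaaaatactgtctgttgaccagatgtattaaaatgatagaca
Apaf1, upstream of the annotated start, GRCr8 chr7:27466773-27467022, minus strand: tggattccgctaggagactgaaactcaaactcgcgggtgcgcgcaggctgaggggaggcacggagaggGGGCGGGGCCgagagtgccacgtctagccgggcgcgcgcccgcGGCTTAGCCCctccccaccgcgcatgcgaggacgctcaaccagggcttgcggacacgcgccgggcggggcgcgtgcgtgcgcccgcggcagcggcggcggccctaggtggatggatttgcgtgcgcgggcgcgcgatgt
Diablo and Birc2 each held 1 match to TGANTCA. This was TGAGTCA from 153 to 147 bases before the start of Diablo and TGACTCA from 128 to 122 bases before that of Birc2. Of 12857 upstream regions of tested genes, 4.47% held this motif. Apaf1 held 2 matches to the NF-kB site and none to the other motifs, and 59.1% of the same regions held that one. The GC content was 52.8% for Diablo, 34.4% for Birc2 and 74.0% for Apaf1, with a median of 59.6% over tested genes, and the annotated start of Birc2 used here lies inside the span of the gene. Among the other 3 genes with an entry, Casp9 held TGACGGGGC, a match to the antioxidant element core that 12.01% of the regions share, and Casp2 held TTTCCCGC, found in 1.62% of them, and both held the NF-kB site. The heat shock element and the cAMP response element matched none of the 6 regions, and 0.35% and 2.61% of regions of tested genes hold them. A match says only that these letters are present.

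Apaf1 (gene ID 78963), the scaffold of the apoptosome, had 42.7 and 39.0 CPM in carfilzomib libraries, against 56.3 and 47.5 CPM in vehicle libraries. The groups did not overlap, but the vehicle libraries differed from each other by 1.19-fold. It fell to 0.79 of the vehicle level, a log2 difference of -0.35 ± 0.08 (SE; edgeR adjusted p = 0.00282). Without vehicle replicate 1 the log2 fold change was -0.22 and the edgeR adjusted p 0.0372, and without vehicle replicate 2 it was -0.46. Its counts carried decimals for which no single other gene in the table was the complement.

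Casp9 (gene ID 58918), the initiator caspase that the apoptosome activates, had 24.9 and 20.8 CPM in carfilzomib libraries, against 24.9 and 26.8 CPM in vehicle libraries. The first carfilzomib library was level with the lower vehicle library and the second stood below both. The estimate was -0.18 ± 0.09 (SE) in log2 units (edgeR adjusted p = 0.100), with a 95% interval from -0.37 to 0.01. Without carfilzomib replicate 1 the log2 fold change was -0.31 and the edgeR adjusted p 0.0211, and without carfilzomib replicate 2 it was -0.05 with 0.714, so 1 library decided on which side of the threshold Casp9 stood. The counts of Casp9 were whole in every library.

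Casp8 (gene ID 64044), the initiator caspase of death receptors and a brake on necroptosis, had 10.01 and 11.2 CPM in carfilzomib libraries, against 7.27 and 6.66 CPM in vehicle libraries. Both carfilzomib libraries stood above both vehicle libraries. The rise was 1.52-fold, or 0.61 ± 0.13 (SE) in log2 units (edgeR adjusted p = 7.09e-04). The counts behind it were 191 and 212 with carfilzomib and 135 and 123 with vehicle, rounded here, and counting error alone was between 6.86% and 9.03% of each. The counts of Casp8 had decimals that no single other gene completed, and so had those of Xiap. On the GRCr8 annotation Casp8 overlaps its neighbour Cflar, which encodes the caspase-8 regulator FLIP, and whether counting used strand is not stated. Cflar had 503 and 467 counts with carfilzomib and 528 and 507 with vehicle, and no call (edgeR adjusted p = 0.136).

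Casp2 (gene ID 64314), an initiator caspase activated on the PIDDosome, was lower with carfilzomib. It had 29.9 and 30.1 CPM in carfilzomib libraries, against 38.1 and 36.3 CPM in vehicle libraries, and the replicates of each group were close together. This was 0.81 of the vehicle level, or -0.31 ± 0.06 (SE) in log2 units (edgeR adjusted p = 7.55e-04). Its counts were whole in every library. Of the 2 tested genes of its activation platform, Cradd, the adaptor, rose by a log2 fold change of 0.67 from a low level, 2.20 and 2.28 CPM with carfilzomib and 1.29 and 1.52 CPM with vehicle (edgeR adjusted p = 0.0403). That call was lost without any 1 library (edgeR adjusted p between 0.0824 and 0.186), with the replicate block (edgeR adjusted p = 0.0671) and with DESeq2 (adjusted p = 0.287). Pidd1, the scaffold of that platform, had 10.6 and 11.3 CPM with carfilzomib and 9.80 and 13.5 CPM with vehicle, and did not pass (edgeR adjusted p = 0.631).

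Casp6 (gene ID 83584), an effector caspase known for cutting lamin A, could not be placed. Its estimated counts were 38.1 and 38.6 in carfilzomib libraries, against 106 and 7.81 in vehicle libraries. The carfilzomib pair was close together and lay between the vehicle libraries, which differed 13.6-fold. The estimate was -0.60 ± 1.46 (SE) in log2 units (edgeR adjusted p = 0.770), with a 95% interval from -6.43 to 5.24. Without vehicle replicate 1 it became 2.21 with an edgeR adjusted p of 0.00307, and without vehicle replicate 2 it became -1.49 with 6.43e-04, so each vehicle library on its own gave a call in the opposite direction. Among all tested genes, 47 of 14519, or 0.324%, differed more than 8-fold between the vehicle libraries (counts plus 0.5), and 43 of the 47 had decimals in their counts, as have 5219 of all tested genes. The same limit was passed by 54 genes between the carfilzomib libraries. No single gene in the table completed the decimals of Casp6, and Mcub, the next gene on the chromosome, had 446 and 497 counts with carfilzomib and 300.4 and 299.6 with vehicle.

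**Figure D2:**
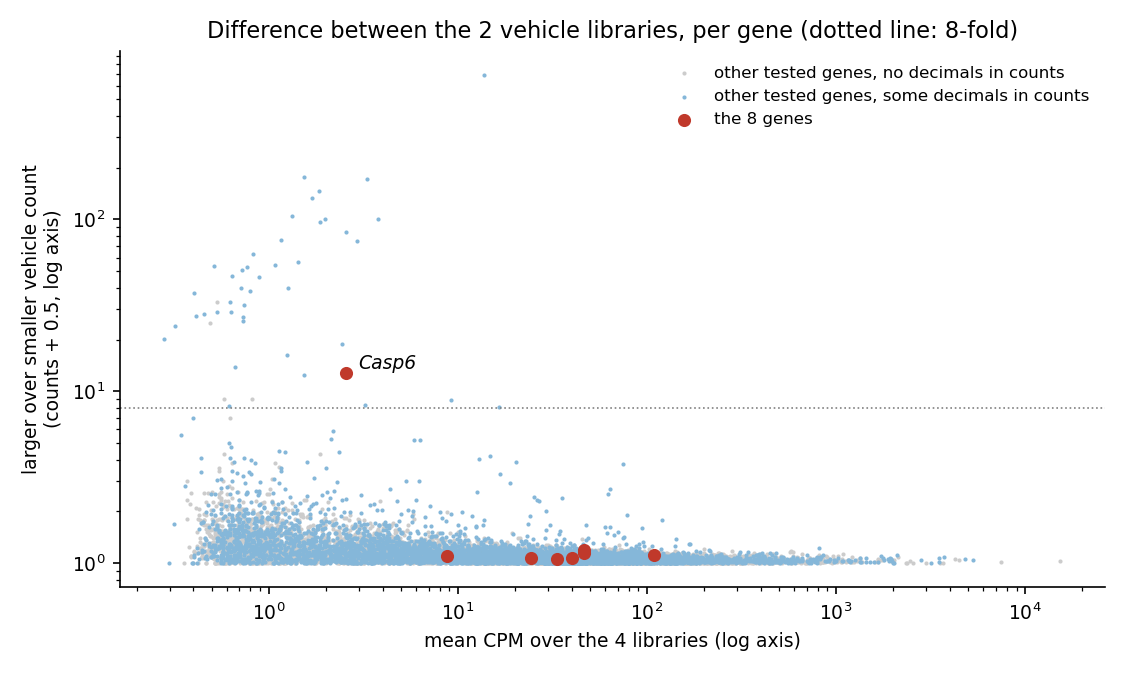
Larger over smaller count of the 2 vehicle libraries (counts plus 0.5) against mean CPM, both on log axes, for all tested genes, with the 8 genes in red, genes with decimals in blue and genes without in grey, partly hidden under blue. Casp6 lies above the dotted line at 8-fold, and the other 7 genes lie near 1.

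**Figure D3:**
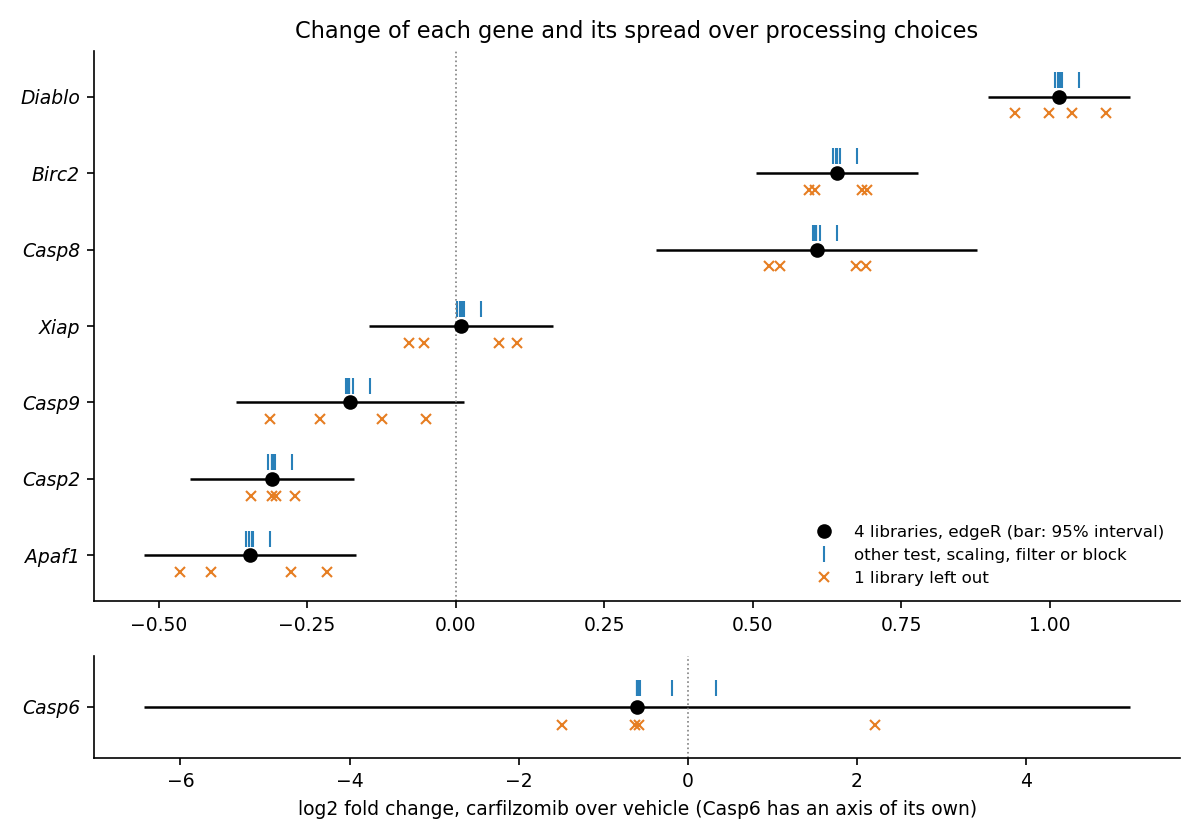
Log2 fold change of each gene, carfilzomib over vehicle, with its 95% interval (black) and the values under other tests, scalings, filters or the replicate block (blue ticks) and with 1 library left out (orange crosses). Diablo, Birc2 and Casp8 stay to the right of 0 and Casp2 and Apaf1 to the left under every alternative drawn, while Casp6, on an axis of its own, runs from -1.49 to 2.21.

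Compared per gene length, Diablo was by far the most abundant of the 8 RNAs, at 116 ± 2.50 FPKM with carfilzomib and 56.2 ± 4.10 FPKM with vehicle (SD, n = 2 each). With carfilzomib, Birc2 came next at 15.8 ± 0.76 FPKM, above Casp2, Casp9 and Xiap, whose libraries overlapped between 8.90 and 10.98 FPKM. With vehicle, Casp2 at 12.3 ± 0.35 and Casp9 at 11.2 ± 0.55 FPKM stood above Birc2 at 9.95 ± 0.46 FPKM, and Birc2, Xiap and Apaf1 formed a run in which neighbours overlapped. Casp8 was low in both groups, at 4.59 ± 0.41 FPKM with carfilzomib and 2.92 ± 0.16 FPKM with vehicle. The ratio of Casp9 to Apaf1, the partners in the apoptosome, was 1.56 and 1.43 in FPKM with carfilzomib and 1.19 and 1.51 with vehicle, and the groups overlapped. The summed FPKM of the 4 caspases was 26.3 and 26.1 with carfilzomib and 29.99 and 26.6 with vehicle. Without Casp6, left out because its vehicle libraries disagree, it was 24.9 and 24.8 with carfilzomib and 26.3 and 26.4 with vehicle. The groups then did not overlap, but by CPM the same holds for 79.9% of all tested genes. This sum joins Casp8, which rose, with Casp2, which fell, and it was not tested.

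**Figure D4:**
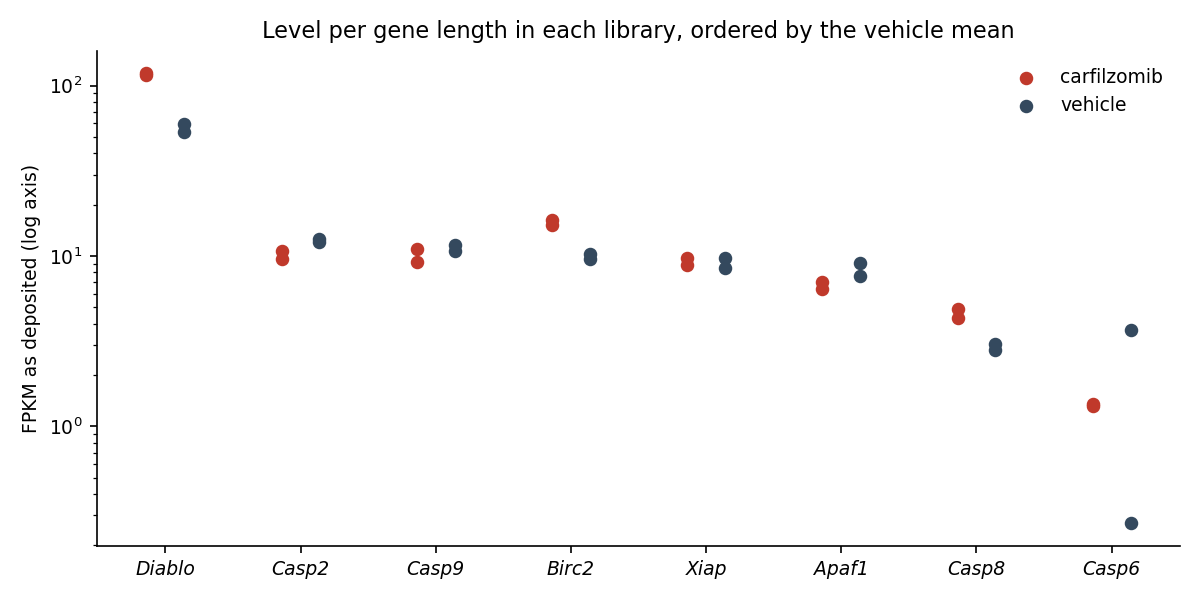
Deposited FPKM (log axis) of the 8 genes in every library, ordered by the vehicle mean, with carfilzomib libraries left and vehicle libraries right for each gene. Diablo stands apart at 53.3 to 118 FPKM, 5 genes lie between 6.43 and 16.3 FPKM, Casp8 lies between 2.81 and 4.88 FPKM, and Casp6 spreads from 0.27 to 3.68 FPKM.

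The genes around these members were counted in 9 lists by role, and 76 of their genes were tested. Of these, 28 rose, 21 fell and 27 missed the threshold, and the median change was 0.07 in log2 units. The shares that rose and fell were 36.8% and 27.6%, near the 30.6% and 30.1% of all tested genes, against which the counts of each list are to be read. Among the 5 other caspases tested, 1 rose, 3 fell and 1 did not pass. Casp4, an inflammatory caspase, fell by 1.27 on the log2 scale. In these libraries 4 of 5 tested macrophage markers fell and Cd14 rose, and most markers of cardiomyocytes, fibroblasts and smooth muscle fell too. The part of any cell type in the fall of Casp4 was not tested.

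Of the 3 other inhibitor-of-apoptosis genes tested, Birc6, a very large ubiquitin ligase of the family, rose by 0.64 on the log2 scale, to 240.0 and 249 CPM with carfilzomib, against 166 and 147 CPM with vehicle. Birc5, survivin, which serves in cell division, fell by 0.86 on the log2 scale, and Birc3 had a log2 difference of 0.29 (edgeR adjusted p = 0.116). Among 9 mitochondrial factors and antagonists of inhibitor-of-apoptosis proteins 2 rose and 5 fell, with a median of -0.21, or -0.084 over those without decimals in their counts. Cycs, cytochrome c, which binds APAF1, fell to 157 and 181 CPM with carfilzomib, against 327 and 317 CPM with vehicle, a log2 fold change of -0.93. Endog, a mitochondrial nuclease, fell by 1.21 and Aifm2, a flavoprotein also known as FSP1, rose by 0.55, while Htra2, a protease that like DIABLO binds inhibitor-of-apoptosis proteins, was at 63.5 and 69.4 CPM with carfilzomib and 64.3 and 64.6 CPM with vehicle. Cycs, Endog and Aifm2 have decimals in their counts.

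Among 15 tested genes of death receptors and the caspase-8 platform 7 rose and 3 fell, and under DESeq2 6 were called in all. Mlkl, the effector of necroptosis, rose by a log2 fold change of 0.68, to 26.2 ± 0.92 CPM with carfilzomib, against 16.4 ± 0.94 CPM with vehicle. Fadd, the adaptor that brings caspase-8 to death receptors, fell by 0.59 (edgeR adjusted p = 0.0036), but its DESeq2 adjusted p was 0.0729, and without carfilzomib replicate 2 its edgeR adjusted p was 0.055. Of 9 apoptosome regulators 2 rose and 1 fell, and the largest change in all the lists was that of Nol3. Nol3 encodes ARC, a cell death inhibitor of heart and skeletal muscle with a caspase recruitment domain, and had 141 and 137 CPM in carfilzomib libraries, against 27.7 and 30.4 CPM in vehicle libraries. Its rise was 4.79-fold, or 2.26 ± 0.06 (SE) in log2 units (edgeR adjusted p = 3.29e-13), and its counts have decimals. Prelid1, a mitochondrial lipid transfer protein, fell by 0.24.

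Of 9 TRAF and ubiquitin genes that act with this family 6 rose and 0 fell. The share that rose was 66.7%, against 30.6% of all tested genes, and the share that fell was 0%, against 30.1%. In either direction 66.7% were called, near the 60.7% of all tested genes, and the list was not tested as a set. The median was 0.21 in log2 units, and every one of the 9 fitted changes in edgeR was above 0, so 0 fell at an unadjusted p under 0.05 as well. Traf3, which works with cIAP1 on the kinase NIK, rose by 0.44. Among 16 caspase substrates 6 rose and 4 fell, with a median of 0.07 that was 0.017 without vehicle replicate 1 and 0.13 without vehicle replicate 2. Of these genes Sptan1, alpha-spectrin, rose by 0.89 and Parp1 fell by 0.25. Gas2 fell by 1.42 from a low level, on counts of 15 and 15 with carfilzomib and 37 and 42 with vehicle. Among 8 genes of the BCL2 family 2 rose and 4 fell. Mcl1, which guards mitochondria, rose by 0.56 and Bcl2 fell by 0.65 from a low level, although the call of Bcl2 was lost without vehicle replicate 1 or carfilzomib replicate 1 and with DESeq2, with adjusted p of 0.0708, 0.0858 and 0.124.

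**Figure D5:**
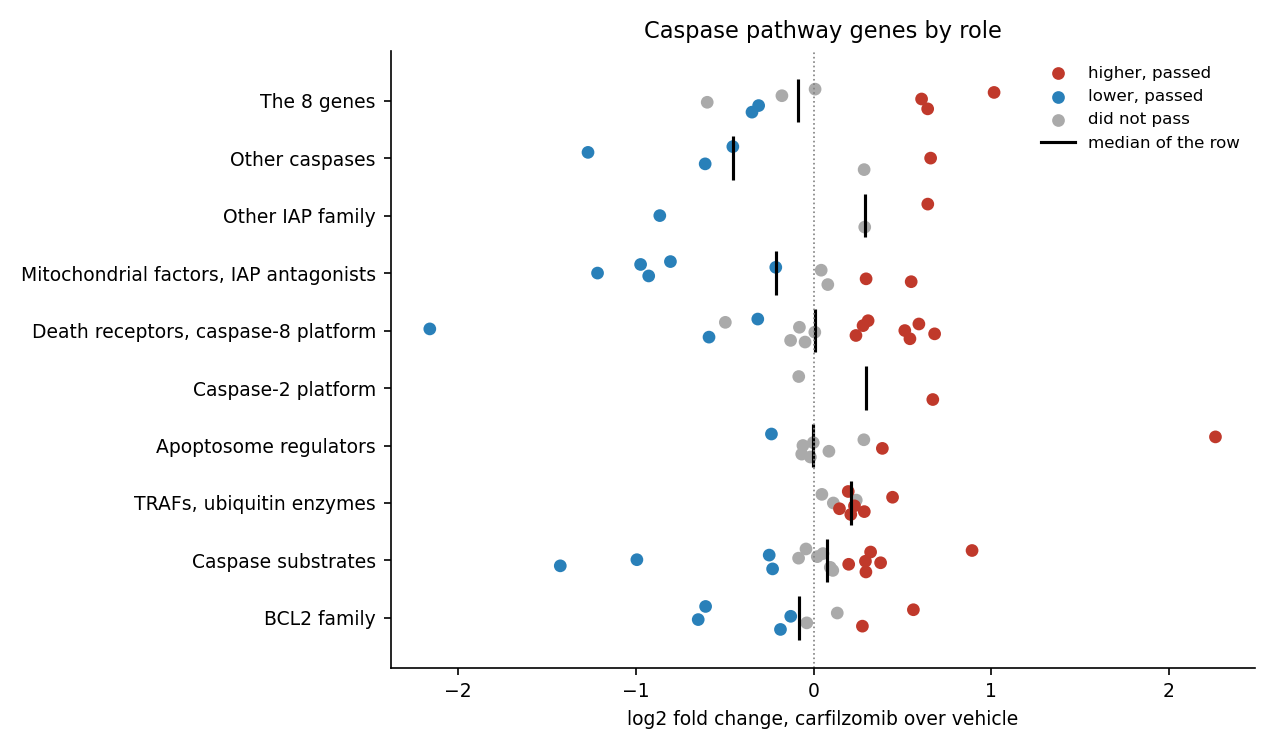
Log2 fold change, carfilzomib over vehicle, of the 8 genes and of the tested genes of each list, one point per gene, coloured by whether it passed the threshold, with a black line at the median of each row. Genes of most roles lie on both sides of 0, and Nol3 lies farthest to the right at 2.26.

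The authors' deposited table lists 5 of the 8 genes among its 6063, with a log2 fold change of 1.02 for Diablo, 0.65 for Birc2, 0.62 for Casp8, -0.34 for Apaf1 and -0.30 for Casp2. In the authors' deposited table their q-values were 4.58e-36, 2.31e-07, 0.0342, 0.0155 and 0.0454. The largest q-value in the authors' deposited table is 0.0499, and Casp9, Casp6 and Xiap are the 3 genes it does not list.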

How the data were processed

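RNA of 2 carfilzomib and 2 vehicle libraries was sequenced. Groups and replicate numbers come from the sample titles, and columns named as a control were taken as vehicle, the only control in the labels. For each gene the authors deposited an unscaled estimated count and an FPKM value, per the file headers. A count was taken to have decimals where it lay over 1e-06 away from the nearest integer. Per the submitters' processing notes the tools include HISAT, Bowtie2, featureCounts 1.6.0 and DESeq2 with the build Rnor_6.0, without roles. A second deposited file gives log2 fold changes, and its p-value and q-value columns name DESeq2, per the file headers. Another 10 columns (TPM and group averages) were left aside.

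The estimated counts were rounded and fitted with edgeR 4.0.16 in R 4.3.3: filterByExpr (minimum count 10, minimum total 15), TMM factors, robust quasi-likelihood test, Benjamini-Hochberg adjustment over 14519 genes. SE is the absolute log2 fold change over the square root of F, and intervals use the test's degrees of freedom. CPM are TMM-normalised. Replicates differed by more than sampling noise (chi-square per degree of freedom 3.00 for carfilzomib and 3.33 for vehicle). An exact permutation test of 2 against 2 libraries cannot give a p below 0.333 and was not used. Scripts were tested on simulated counts. The alternatives were DESeq2 1.42.0, limma-voom (limma 3.58.1), RLE factors, library size alone, no filter, a stricter filter (1 CPM in 2 libraries and 50 counts in all), a replicate block, each library left out, and the lists without genes whose counts have decimals.

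The members, lists and motifs were chosen with earlier results of these data known. Genes named beside the members are 10 set by name and, from each list, the called gene with the largest rise and the largest fall with a mean of at least 1 CPM; others were chosen after their values were seen. Some of the genes set by name are not reported here. Of the list entries 3 were not matched to the table. Upstream sequences are RefSeq's, matched by gene ID for 6 of 8 genes.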

Additional observations from a re-analysis of the deposited data

How the results depend on the processing

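The 5 calls among the 8 genes and their directions held under all 11 alternatives, with log2 fold changes from 0.94 to 1.09 for Diablo, 0.60 to 0.69 for Birc2, 0.53 to 0.69 for Casp8, -0.34 to -0.27 for Casp2 and -0.46 to -0.22 for Apaf1. Leaving out each library in turn gave -1.49 to 2.21 for Casp6, -0.31 to -0.050 for Casp9 and -0.078 to 0.10 for Xiap, and Casp6 was at 0.33 with limma-voom; the cause was not tested. Among the named genes of the lists, Htra2 gave -0.019 to 0.11. A fit that leaves out a library assumes that the lone sample of its group varies like the other group.

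Whether libraries of the same replicate number were paired is not known, as the labels tie no number to an animal or day. Deviations of libraries with the same number had a correlation of -0.02 across genes. This value cannot settle the question, because those deviations include counting noise. With the replicate block 8229 genes were called, against 8812 without it, and the same 5 of the 8 genes passed, with Casp6 at -0.19. DESeq2 called 6489 genes and library size alone 8864. In the apoptosome list 5 genes were called with library size alone, against 3. Without genes whose counts have decimals, the median of the other inhibitor-of-apoptosis genes was -0.11, against 0.29 with all 3. The -0.11 lies midway between the only genes left, Birc5 at -0.86 and Birc6 at 0.64, and the 0.29 is the value of Birc3. With 2 libraries a group, a single library can decide a call.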

Other observations

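The genes named here were chosen after their values were seen. Ripk3, the kinase that activates MLKL in necroptosis, had 30.6 and 28.1 CPM in carfilzomib libraries, against 20.0 and 21.2 CPM in vehicle libraries, and rose by a log2 fold change of 0.51, with decimals in its counts. Ripk1, the kinase upstream of it and a target of cIAP1, had 45.7 and 51.2 CPM with carfilzomib and 49.8 and 46.6 CPM with vehicle, a log2 difference of 0.01 (edgeR adjusted p = 0.935). Cyld, a deubiquitinase that acts on RIPK1, rose by 0.54 on the log2 scale. Tnf, a ligand of this route, had counts of 3 and 3 with carfilzomib and 14 and 13 with vehicle. Only the vehicle libraries reached the filter's minimum count of 10. A call of Tnf could thus hardly be other than a fall, and its fall, counted among the 3 of its list, is not read as a result. Tnfrsf1a, its receptor, rose to 266 and 247 CPM with carfilzomib, against 203 and 220 CPM with vehicle. Casp12, a caspase linked to the endoplasmic reticulum in rodents, fell by 0.61, to 7.08 and 7.89 CPM with carfilzomib, against 10.7 and 12.1 CPM with vehicle.

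Lmnb1, a nuclear lamin that caspases cut, fell to 49.6 and 49.9 CPM with carfilzomib, against 99.5 and 98.6 CPM with vehicle, while Lmna, which encodes lamin A, rose by 0.29 on the log2 scale. These are levels of RNA and say nothing of cleavage.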
